A study of Mus musculus with 40 samples.

Results

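Heat shock proteins and their regulators were examined in the RNA and H3K9me2 data of mouse oocytes that lack G9A, or both G9A and GLP. The group comprised 10 genes, Hsf1, Hsf2, Hspa1a, Hspa1b, Hspa8, Hspa5, Hsph1, Hsp90aa1, Hsp90ab1 and Dnajb1. They were chosen by family, with the low Hspa1b level in oocytes deleted for both enzymes already known, so the Hspa1b values in that comparison are given as a description without a test. A member was taken from the 38540 transcript loci of the RNA table where the table names the locus for the gene and places both on the same strand, and 8 of the 10 genes had such a locus. Hspa1a was named only for a locus on the opposite strand, and no locus was named for Hsf1.

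The study collected pools of 100 to 200 germinal-vesicle oocytes, which are full-size ovarian oocytes still arrested ahead of meiotic maturation, by dissection from mice aged 22 to 25 days. RNA was sequenced from 3 control pools with the title prefix GKAO, 3 G9a cKO pools with the same prefix, 3 control pools with the prefix GKAQ and 2 G9a-Glp cDKO pools with the prefix GKAQ, and each mutant was compared with the controls of its prefix. G9a cKO marks a conditional deletion of G9a, whose gene is Ehmt2, and cDKO a conditional deletion that also removes Glp, whose gene is Ehmt1. G9A and GLP are the paired enzymes that dimethylate lysine 9 of histone H3 (H3K9me2), a mark of repressed chromatin. H3K9me2 was profiled in 2 libraries each of control, G9a cKO and cDKO oocytes. The labels name neither the strain nor the Cre driver that made the deletions conditional, and they do not say which pools came from which animals, so p-values measure the spread between these pools.

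Heat shock proteins are chaperones that hold unfolded proteins and help them fold, and many are induced when a cell is stressed. HSF1 is the transcription factor that drives this induction by binding heat shock elements in promoters, and HSF2 is a related factor with roles in germ cells and development. In oocytes HSF1 also acts without stress and supports expression of heat shock genes during meiotic maturation. HSP70 chaperones work with J-domain partners such as DNAJB1 and with nucleotide exchange factors such as HSPH1, while HSP90 chaperones act on signalling proteins that are nearly folded.

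Hspa1b and Hspa1a encode the inducible HSP70 and are neighbouring copies on chromosome 17. Their upstream sequences are shown because the copies are so alike that reads are hard to assign, and those of Hsph1 and Hspa5 because both genes were called in G9a cKO. Upstream sequence was found for 6 of the 10 members in the RefSeq promoter table of GRCm38.p6. Each run holds the 250 bases before the annotated start, 5′ to 3′ on the strand of the gene. Capitals mark GAANNTTC or TTCNNGAA, the paired core of a heat shock element, which reads the same on both strands, or the endoplasmic reticulum stress element, CCAAT followed after 9 bases by CCACG. The Hspa1b run lies at chr17:34959239-34959488 on the minus strand, the Hspa1a run at chr17:34972157-34972406 on the minus strand, the Hsph1 run at chr5:149636337-149636586 on the minus strand and the Hspa5 run at chr2:34771840-34772089 on the plus strand.
Hspa1b: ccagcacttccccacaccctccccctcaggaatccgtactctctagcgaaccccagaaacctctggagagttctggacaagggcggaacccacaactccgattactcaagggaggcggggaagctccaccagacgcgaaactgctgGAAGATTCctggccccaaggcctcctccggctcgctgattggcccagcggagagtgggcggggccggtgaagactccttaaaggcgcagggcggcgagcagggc
Hspa1a: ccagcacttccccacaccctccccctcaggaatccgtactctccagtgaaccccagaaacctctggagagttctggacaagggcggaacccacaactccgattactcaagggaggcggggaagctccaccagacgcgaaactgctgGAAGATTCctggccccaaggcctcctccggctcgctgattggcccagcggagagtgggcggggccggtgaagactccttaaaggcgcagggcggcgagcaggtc
Hsph1: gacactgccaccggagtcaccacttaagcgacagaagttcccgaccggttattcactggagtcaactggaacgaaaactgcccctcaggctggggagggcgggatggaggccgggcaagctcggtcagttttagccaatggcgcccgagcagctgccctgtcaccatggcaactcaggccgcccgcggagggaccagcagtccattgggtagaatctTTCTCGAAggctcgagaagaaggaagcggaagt
Hspa5: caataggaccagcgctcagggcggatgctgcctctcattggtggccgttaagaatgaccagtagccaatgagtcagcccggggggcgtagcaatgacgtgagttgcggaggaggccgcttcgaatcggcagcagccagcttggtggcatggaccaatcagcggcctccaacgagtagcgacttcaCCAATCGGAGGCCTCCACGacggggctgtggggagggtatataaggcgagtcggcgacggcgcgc

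The Hspa1b and Hspa1a runs were identical at 247 of 250 bases. Counted from 1 at the 5′ end and written from Hspa1b to Hspa1a, the differences were T44C, C47T and G249T. Each of the pair held 1 heat shock core, which ended 96 bases before the start, and the Hsph1 run held 1 that ended 25 bases before the start. Such a core was present in 12.8% of the 32851 upstream runs of this length in the table. The Hspa5 run held 1 endoplasmic reticulum stress element, 46 bases before the start, which was present in 0.113% of the runs. The Hsf2 and Dnajb1 runs held neither. These matches describe the letters only and do not show binding.

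RNA levels are given as reads scaled to 1000000 per library (RPM), without correction for transcript length, so they are compared between libraries and not between genes. The libraries were scaled to totals of 1458868 to 2399680 reads. Loci with a mean of at least 10 RPM are described as detected, and a locus was called at an adjusted p under 0.05 from limma over all 38540 loci. In G9a cKO 1.79% of all loci and 5.22% of the 9091 detected loci were called, and in cDKO 6.34% and 15.8%. The cDKO calls were 1665 higher and 779 lower, and 1290 and 1140 once each library was centred on its detected loci. Ehmt1 lay between 54.5 and 90.5 RPM in controls and G9a cKO and at 17.7 and 21.3 RPM in cDKO. Ehmt2 had few reads, 8 to 30 in the controls, 5 in each cDKO library, and 5, 11 and 2 in the G9a cKO libraries. The value of 11 reads, in G9a cKO replicate 2, lay within the range of the controls, so values are also given without that library where leaving it out changes a call or moves a member value by over 1.5 times. Pools are bulk samples, so fewer cells of a type and less RNA per cell cannot be told apart. Calls were also refitted under up to 21 alternatives. Among these, a fit without a library of the other prefix leaves the log2 fold change of a mutant unchanged. It alters only the shared spread and the adjustment, so counts of alternatives that kept a call include near copies of the main fit.

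**Figure D1:**
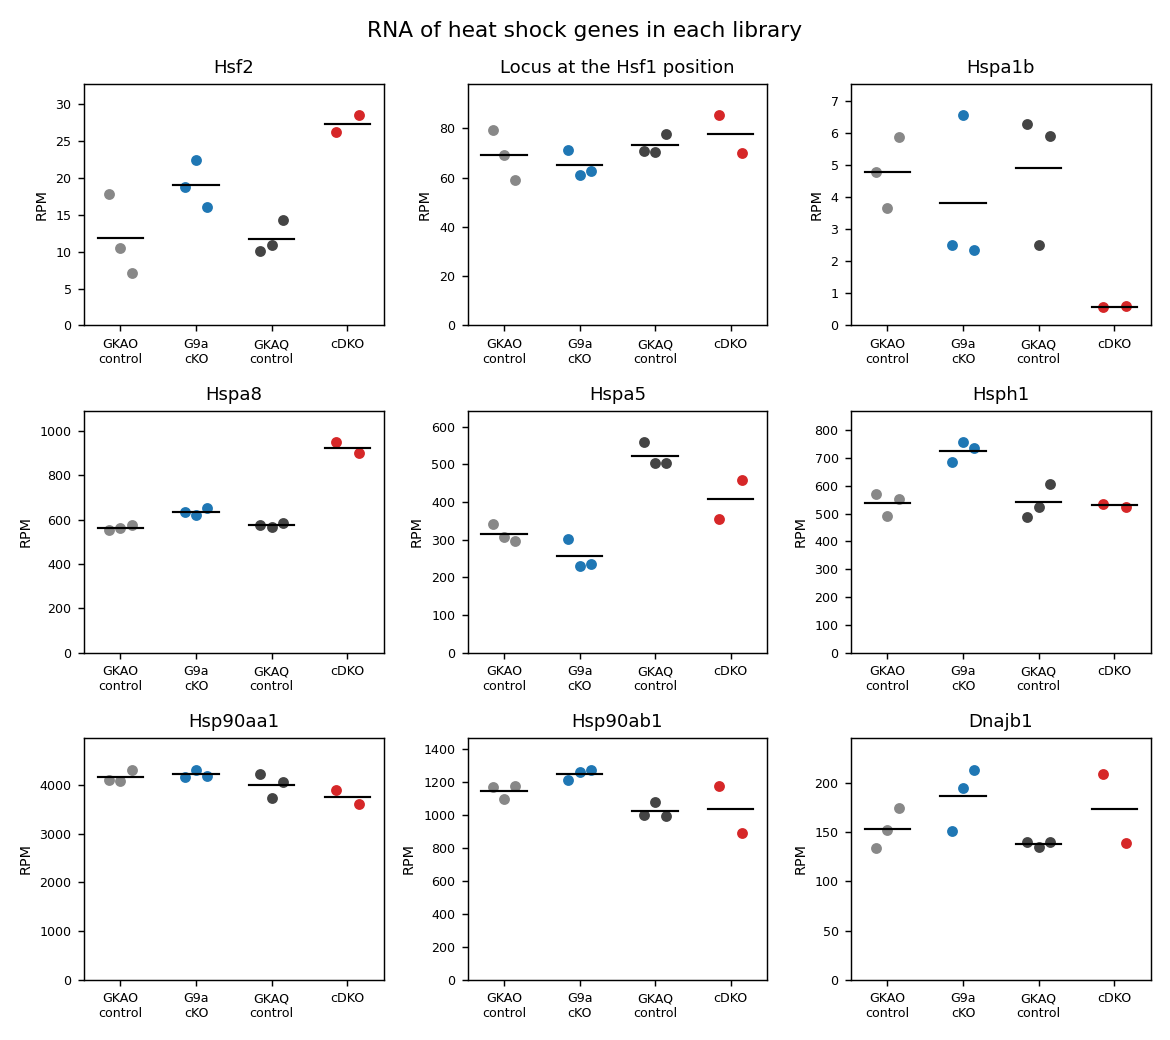
RNA of the 8 member loci and of the locus at the Hsf1 position, in RPM on a linear axis from 0, with 1 point per library and a line at the group mean. The 2 cDKO libraries lie above all GKAQ controls for Hspa8 and Hsf2 and below them for Hspa1b, and the 3 G9a cKO libraries lie above all GKAO controls for Hsph1.

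Hspa8 rose in cDKO oocytes and Hsph1 rose in G9a cKO oocytes, and for each gene the effects in the mutants differed. Hsf2 was called higher and Hspa5 lower in cDKO, while Hsp90aa1, Hsp90ab1 and Dnajb1 passed the test in neither mutant. In G9a cKO 2 of the 8 member loci were called, Hsph1 and Hspa5, and 1, Hsph1, without G9a cKO replicate 2. In cDKO 3 of the 7 tested were called, Hspa8, Hsf2 and Hspa5, and 1, Hspa8, without GKAQ control replicate 1. A difference between the effects was called for 2 of 7, Hspa8 and Hsph1, against 1.08% of all loci and 3.34% of detected loci. Without GKAQ control replicate 1 the same members were called, but so were 38.2% of all loci. Of the 8 loci, 7 were detected, and Hspa1b was not. With so few loci, the counts are a description beside the shares called over all and detected loci given above.

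Hsf2, on chromosome 10 from 57486274 to 57513133, encodes one of the heat shock transcription factors. It was measured at 17.8, 10.5 and 7.03 RPM in GKAO controls and at 18.8, 22.4 and 16.0 RPM in G9a cKO. The same locus stood at 10.1, 10.8 and 14.3 RPM in GKAQ controls and at 26.2 and 28.5 RPM in cDKO. Both cDKO libraries were above every control library of either prefix, whereas the lowest G9a cKO library was under the highest GKAO control. The log2 fold change was 1.24 (standard error 0.34, limma adjusted p = 0.00932) in cDKO, a fold of 2.36. In G9a cKO it was 0.79 (standard error 0.31, adjusted p = 0.23). The difference between these effects was 0.45 on the log2 scale (95% interval -0.46 to 1.36, adjusted p = 0.505), so the mutants were not shown to differ for Hsf2. The cDKO call rests on 16 to 48 reads per library and was made in 15 of 21 alternatives. It was lost with log2(RPM + 1) (limma adjusted p = 0.122), without trend and robust moderation (0.111) and without GKAQ control replicate 1 (0.0504). The title-number block, which leaves the effect to 1 pair of libraries, also lost it (0.224). So did leaving out either cDKO library, with log2 fold changes of 1.30 without replicate 1 and 1.18 without replicate 2.

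Hsf1 could be followed only through position. The plus-strand locus from 76477251 to 76501032 on chromosome 15 overlaps the RefSeq position of Hsf1, but the table names it for Bop1, which lies on the other strand. Its levels were 79.5, 69.1 and 59.2 RPM in GKAO controls, 71.4, 61.2 and 62.6 RPM in G9a cKO, 71.0, 70.4 and 77.9 RPM in GKAQ controls, and 85.4 and 70.0 RPM in cDKO. The groups overlapped in both comparisons. The log2 fold changes were -0.08 (standard error 0.16, 95% interval -0.41 to 0.24) in G9a cKO and 0.08 (standard error 0.18, -0.28 to 0.44) in cDKO, and neither was called.

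The Hspa1b locus, on the minus strand of chromosome 17 from 34956434 to 34972342, spans the RefSeq positions of both Hspa1b and Hspa1a, so its reads may come from either copy. It held 7, 7 and 10 reads in GKAO controls and 6, 12 and 5 in G9a cKO. It held 10, 6 and 12 reads in GKAQ controls and 1 in each cDKO library. The cDKO libraries were thus the lowest of the 11, and the G9a cKO libraries overlapped their controls through replicate 2, the library with 12 reads, while the other two lay below every GKAO control in RPM. Summed over libraries, cDKO had 2 reads of a total of 3443126 and the GKAQ controls 28 of 6019577. In G9a cKO the sums were 23 and 24 reads, a ratio per read sequenced of 0.766 with a 95% exact interval of 0.413 to 1.42 that covers counting error only, and the log2 fold change was -0.47 (standard error 0.60, limma adjusted p = 0.591). Without G9a cKO replicate 2 it was -0.95 (standard error 0.69, adjusted p = 0.308). The opposite-strand locus named Hspa1a held at most 1 read in any library, which leaves no level to compare.

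Hspa1b lies in a gene-dense stretch that also holds Ehmt2, the gene deleted in both mutants, whose locus ends 42382 bases before the Hspa1b locus begins. Within 100 kb the table names 19 loci, Hspa1b included, and 12 of them had a mean under 1 RPM. No locus of the 19 was called in G9a cKO by limma or with voom precision weights, and 3 had an unadjusted p under 0.05. There limma gave Slc44a4 and Ehmt2 the lowest adjusted p at 0.0808 and 0.0971. Slc44a4, a choline transporter-like gene next to Ehmt2 on the same strand, had 37 and 25 reads in cDKO against 6, 10 and 11 in GKAQ controls, and 2, 10 and 3 reads in G9a cKO against 6, 13 and 10. Its log2 fold change was 2.01 (standard error 0.56, adjusted p = 0.00898) in cDKO and -1.56 (standard error 0.50) in G9a cKO. Without G9a cKO replicate 2, both Slc44a4 at -2.33 (standard error 0.56) and Ehmt2 at -2.25 (standard error 0.58) were called lower in G9a cKO. That library was left out because of its Ehmt2 reads, so the Ehmt2 call followed from the choice and is not a test. Slc44a4 also had its most G9a cKO reads there, 10 against 2 and 3, so its call is likewise only a description. Lsm2, on the far side of the Hspa1 genes, had 61, 73 and 80 reads in GKAQ controls and 47 and 63 in cDKO, and its log2 fold change of -0.18 (standard error 0.27) was not called. Hspa1l, the testis-type HSP70 between Hspa1a and Lsm2, had no read in any library. The part of the deletion at Ehmt2 in these neighbouring values was not tested.

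**Figure D2:**
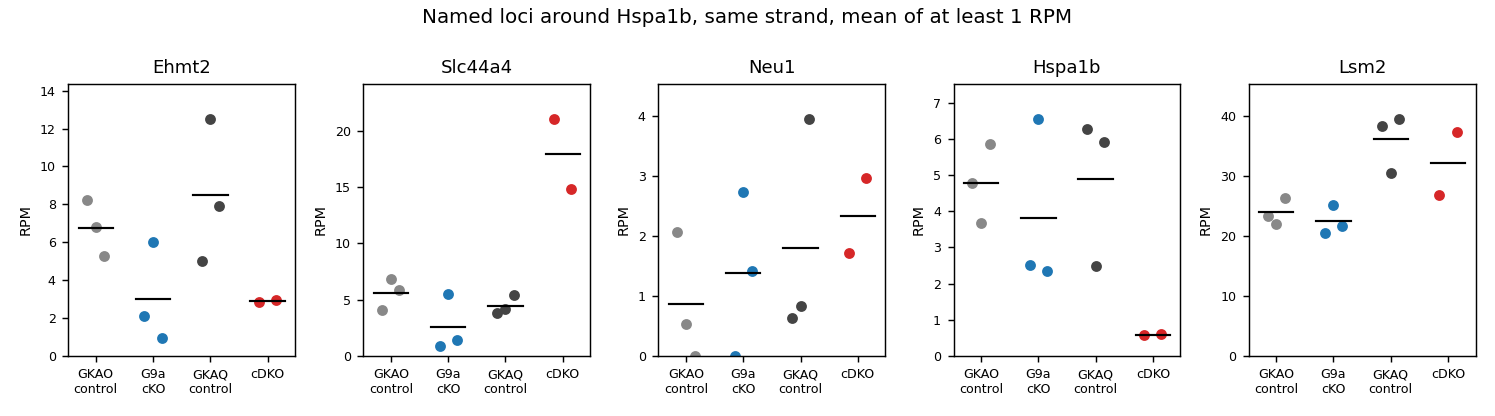
RNA of the named loci within 100 kb of Hspa1b that lie on the strand of their gene and had a mean of at least 1 RPM, in RPM on linear axes from 0, with 1 point per library and a line at the group mean. In cDKO, Slc44a4 lies above and Hspa1b below every GKAQ control.

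Hspa8, on chromosome 9 from 40800784 to 40806184, encodes HSC70, the HSP70 that cells make without stress. Its levels were 578, 567 and 584 RPM in GKAQ controls and 949 and 901 RPM in cDKO. In GKAO controls they were 555, 562 and 577 RPM, and in G9a cKO 633, 623 and 651 RPM. The control libraries of both prefixes stayed within a narrow band, and each mutant library lay above all of them. The log2 fold change was 0.68 (standard error 0.08, limma adjusted p = 4.45e-16) in cDKO, a fold of 1.61, and this call held under all 21 alternatives. In G9a cKO it was 0.17 (standard error 0.07, adjusted p = 0.23), and with voom precision weights this was called (0.0384). The cDKO effect exceeded the G9a cKO effect by 0.51 (standard error 0.10, adjusted p = 0.000321). Without trend and robust moderation of the variance the difference had an adjusted p of 0.232.

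Hspa5, on chromosome 2 from 34772045 to 34776531, encodes BiP, the HSP70 of the endoplasmic reticulum. It stood at 558, 504 and 504 RPM in GKAQ controls and at 355 and 458 RPM in cDKO. It stood at 341, 307 and 295 RPM in GKAO controls and at 303, 231 and 236 RPM in G9a cKO. In cDKO both libraries were below the controls of their prefix but above every GKAO control, and in G9a cKO 1 library overlapped the controls. The controls themselves differed, with GKAQ above GKAO by 0.73 on the log2 scale (standard error 0.09, limma adjusted p = 1.19e-14), and Hspa5 alone of the 8 loci was called between the control groups, where 3.87% of all loci and 14.8% of detected loci were called.

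Against its own controls Hspa5 was lower by limma in both mutants, with log2 fold changes of -0.37 (standard error 0.10, adjusted p = 0.00439) in cDKO and -0.30 (standard error 0.09, adjusted p = 0.0302) in G9a cKO. The first was lost without cDKO replicate 1 (-0.19, adjusted p = 0.623) and was 0.00 (adjusted p = 0.992) when all 6 controls were pooled. It was -0.14 (adjusted p = 0.50) with the number in the sample titles as a block, and 14 of 21 alternatives kept the call. The second was lost in 12 of 21 alternatives, including the fit without G9a cKO replicate 2 (-0.23, adjusted p = 0.128).

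Hsph1, on chromosome 5 from 149616544 to 149636376, encodes HSP110, a nucleotide exchange factor for HSP70. It was measured at 571, 490 and 553 RPM in GKAO controls and at 687, 757 and 737 RPM in G9a cKO. The levels were 490, 525 and 608 RPM in GKAQ controls and 535 and 524 RPM in cDKO. All 3 G9a cKO libraries were above every other library, and the cDKO libraries lay inside the range of their controls. The log2 fold change was 0.44 (standard error 0.07, limma adjusted p = 5.48e-07) in G9a cKO, a fold of 1.35, and -0.03 (standard error 0.08, 95% interval -0.18 to 0.13) in cDKO. The cDKO effect was lower than the G9a cKO effect by a log2 value of -0.46 (standard error 0.11, adjusted p = 0.00405). The G9a cKO call held in 19 of 21 alternatives and was lost with log2(RPM + 1) (adjusted p = 0.117) and without trend and robust moderation (0.279). The difference was lost in 6 of 20. It was not called with log2(RPM + 1) (limma adjusted p = 0.314), with voom precision weights (0.113) or without trend and robust moderation (0.232). Nor was it called without GKAO control replicate 2 (0.0515), without GKAQ control replicate 3 (0.124) or with the title-number block (0.10).

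Hsp90aa1, on chromosome 12 from 110690605 to 110702728, encodes the inducible cytosolic HSP90. Its levels were 4098, 4091 and 4323 RPM in GKAO controls, 4171, 4303 and 4195 RPM in G9a cKO, 4232, 3741 and 4062 RPM in GKAQ controls, and 3901 and 3619 RPM in cDKO. The groups overlapped in both comparisons. The log2 fold change was 0.02 (standard error 0.03, 95% interval -0.05 to 0.08) in G9a cKO and -0.09 (standard error 0.04, -0.17 to -0.02, adjusted p = 0.135, limma) in cDKO. In cDKO the call depended on scaling, with -0.19 (adjusted p = 6.4e-05) after centring on detected loci and -0.15 (0.00274) after upper-quartile centring, and it was also made without cDKO replicate 1 (0.0212) or GKAQ control replicate 2 (0.0255).

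Hsp90ab1, on chromosome 17 from 45567725 to 45573401, encodes the constitutive cytosolic HSP90. Its levels were 1166, 1098 and 1175 RPM in GKAO controls and 1212, 1260 and 1274 RPM in G9a cKO. They were 998, 1076 and 992 RPM in GKAQ controls, and 1175 and 890 RPM in cDKO. The G9a cKO libraries lay just above their controls, and the cDKO pair lay on either side of theirs. Neither difference was called by limma, with log2 fold changes of 0.12 (standard error 0.06, adjusted p = 0.23) and 0.00 (standard error 0.06, 95% interval -0.12 to 0.12).

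Dnajb1, on chromosome 8 from 83607785 to 83611902, encodes an HSP40 that delivers substrates to HSP70. It was measured at 134, 152 and 175 RPM in GKAO controls, 152, 195 and 214 RPM in G9a cKO, 140, 135 and 141 RPM in GKAQ controls, and 209 and 139 RPM in cDKO. In each mutant some libraries were above all controls and others were inside their range. The log2 fold changes by limma were 0.27 (standard error 0.12, adjusted p = 0.23) in G9a cKO and 0.30 (standard error 0.13, adjusted p = 0.192) in cDKO. Without cDKO replicate 2 the latter was 0.59 (adjusted p = 0.00787), so the result rests on which cDKO library is used.

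**Figure D3:**
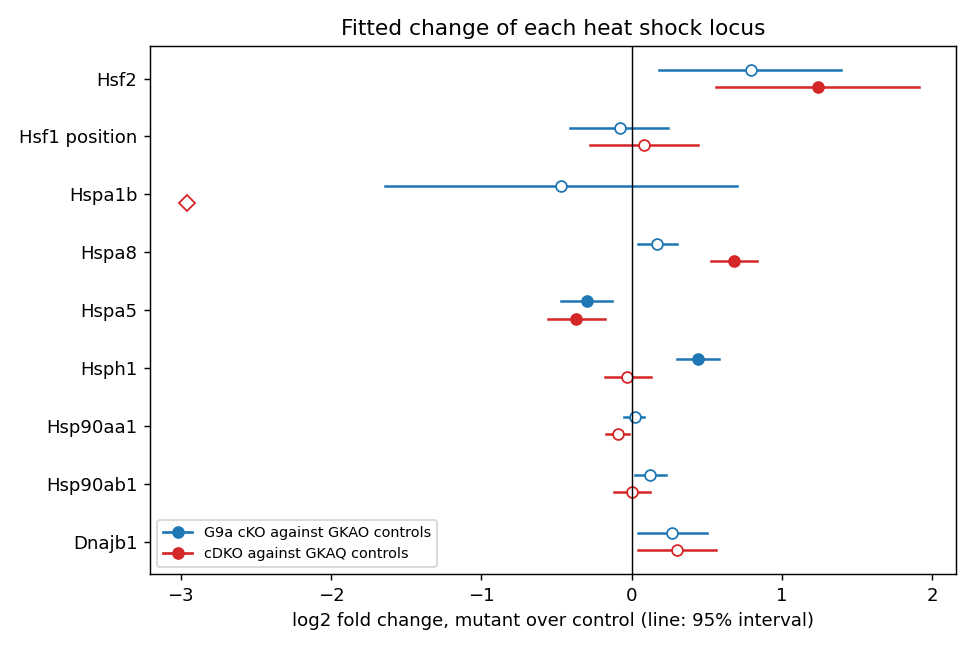
Log2 fold change of each locus in G9a cKO and cDKO against the controls of the same prefix, with 95% intervals. Filled points were called at an adjusted p under 0.05, open points were not, and the open diamond is Hspa1b in cDKO, which was given no test or interval. The interval of Hspa8 in cDKO lies between 0.53 and 0.83 and that of Hsph1 in G9a cKO between 0.30 and 0.58.

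Beyond the members, 10 lists of chaperone and stress genes were examined, with 109 genes besides the members that had a locus on the strand of the gene and 75 of these detected. In G9a cKO 1 of the 109 was called higher and 3 lower, against 1.05% and 0.737% of all loci, and their median log2 fold change was -0.01, beside -0.31 over all loci and 0.01 over detected loci. In cDKO 6 were called higher and 6 lower, against 4.32% and 2.02% of all loci, and their median was 0.05, beside 0.20 and 0.05. Without G9a cKO replicate 2 the first count was 2 in all, and without GKAQ control replicate 1 or 3 the second was 7 or 6. Detected genes made up 75 of the 109 but only 9091 of all 38540 loci. Of detected loci, 5.22% were called in either direction in G9a cKO and 15.8% in cDKO, which is the closer measure for these counts. The medians over all loci also carry library depth, because an empty locus is set to 0.9 read. Hspa1l, with no read in any library, had -0.32 in G9a cKO and 0.20 in cDKO. For the medians, too, detected loci are the closer comparison. A list gene is named here where it was called at a log2 fold change of at least 1, or is among the closest relatives of a member.

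Among relatives of HSP70, Hspa13, a microsomal HSP70, held 17 to 22 reads in cDKO and 1 to 14 in GKAQ controls, with a log2 fold change of 2.34 (standard error 0.66, limma adjusted p = 0.00965) in cDKO. That call was made in 14 of 21 alternatives and was lost without either cDKO library (adjusted p = 0.155 and 0.0636) and without GKAQ control replicate 1, where the value was 1.44 (0.137). With the title-number block the value was 0.79 (0.614). Hspa9, the mitochondrial HSP70, had log2 fold changes of 0.09 (standard error 0.07) and -0.17 (standard error 0.08), and Hspa2, the testis-enriched HSP70, of 0.75 (standard error 0.50) and -0.89 (standard error 0.56), in G9a cKO and cDKO. None of these was called. Apart from Hspa1b, 13 HSP70-family genes had a locus. Of these, 1 was called higher and 1 lower in G9a cKO, both of them members. In cDKO 2 were called higher and 2 lower, the members Hspa8 and Hspa5 among them. Of the 13 genes, 9 were detected, and 5.22% of detected loci were called in G9a cKO and 15.8% in cDKO.

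Of 21 genes in the endoplasmic reticulum stress list, 2 were called higher and 4 lower in cDKO, and none higher and 3 lower in G9a cKO, Hspa5 included in each. Of the 21 genes, 19 were detected, and 15.8% of detected loci were called in cDKO and 5.22% in G9a cKO. Hsp90b1, the HSP90 of that compartment, lay between 1191 and 1405 RPM in GKAQ controls and at 889 and 935 RPM in cDKO. Its log2 fold change was -0.50 (standard error 0.06, limma adjusted p = 3.49e-13) in cDKO and -0.11 (standard error 0.06, adjusted p = 0.23) in G9a cKO. The difference of -0.38 (standard error 0.08) was called by limma (adjusted p = 0.00123) but not with voom precision weights. Calr, which encodes the lectin chaperone calreticulin and was singled out after its values were seen, was called in both, at -0.45 (standard error 0.06) in cDKO and -0.26 (standard error 0.05) in G9a cKO.

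The genes called higher in that list were Dnajb9 and Edem1. Dnajb9, a J-domain partner of BiP, held 49 to 56 reads in cDKO and 9 to 13 in GKAQ controls, with a log2 fold change of 2.57 (standard error 0.40, limma adjusted p = 2.65e-08) that was called in all 21 alternatives. In G9a cKO it held 25 to 47 reads against 7 to 20 in GKAO controls, a log2 fold change of 0.97 (standard error 0.36, adjusted p = 0.17). Edem1, which directs misfolded glycoproteins to degradation, had 1.03 (standard error 0.33, limma adjusted p = 0.0332) in cDKO and was called in 9 of 21 alternatives. Those 9 include the fits without a GKAO library, which leave the value at 1.03. The call was lost with log2(RPM + 1) (adjusted p = 0.417), with voom precision weights (0.307) and without GKAQ control replicate 1 (0.137). With the title-number block the value was 0.26 (0.742).

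Of 12 HSP40 genes of classes A and B, 10 of them detected, 1 was called higher and 1 lower in G9a cKO. In cDKO 2 of the 12 were called higher, Dnajb9 included. Among 22 of class C, 15 of them detected, 1 was called lower in each mutant. Of 10 chaperonin and prefoldin genes, 9 of them detected, 1 was called higher and 1 lower in cDKO. Of detected loci 5.22% were called in G9a cKO and 15.8% in cDKO. Dnajb2, a J-domain protein best known from neurons, fell in G9a cKO and was the only list gene outside the members called there at a log2 fold change of at least 1, with 10.4 to 13.8 RPM against 25.4 to 35.6 RPM in GKAO controls and a log2 fold change of -1.28 (standard error 0.29, limma adjusted p = 0.00162). In cDKO it had -0.84 (standard error 0.32, adjusted p = 0.112). Of the 20 cochaperones with a locus, 15 were detected. None of the 20 was called in either mutant by limma, with or without voom precision weights, and 4 in G9a cKO and 3 in cDKO had an unadjusted p under 0.05. Of the 3 small heat shock proteins with a locus, only 1 was detected. None of the 3 was called by limma, also with voom, and 0 had an unadjusted p under 0.05. Hsf5, a heat shock factor known from spermatogenesis, was not called, with -0.21 (standard error 0.23) and -0.48 (standard error 0.26). Between the control groups 11 of the 109 list genes were called higher in GKAQ and 4 lower. All of those called were among the 75 detected, and 14.8% of detected loci were called between these groups. Over all loci 754 were called higher in GKAQ and 736 lower.

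**Figure D4:**
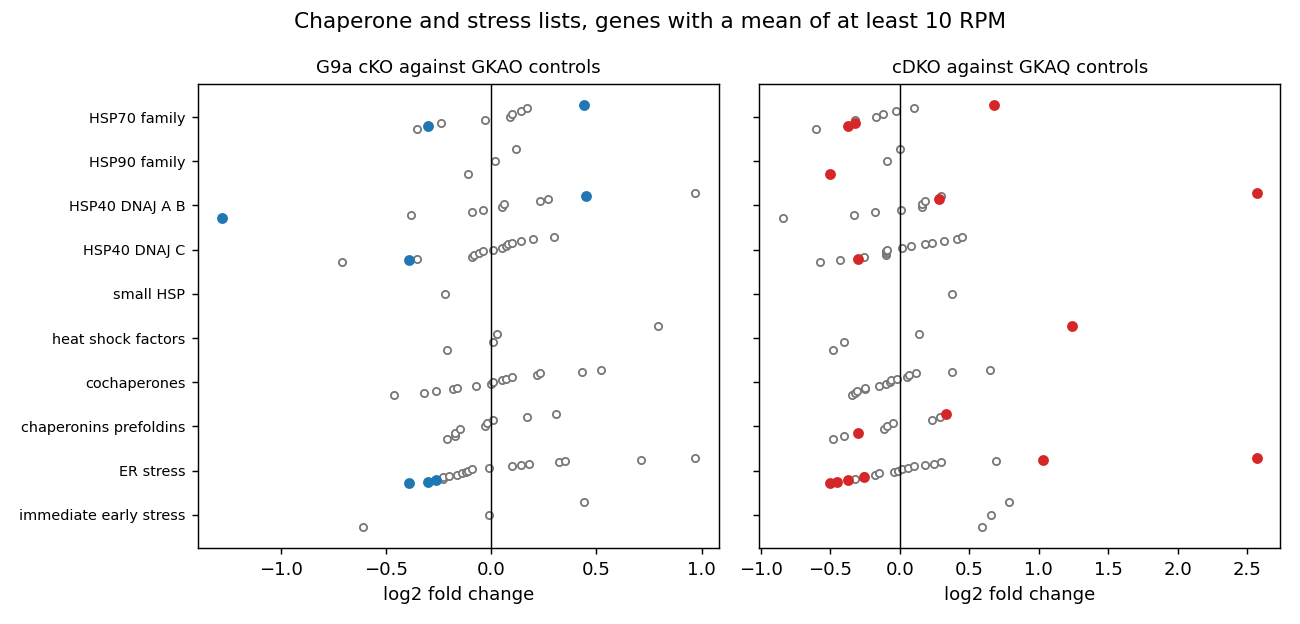
Log2 fold change of the detected genes in each chaperone and stress list, members included, in G9a cKO (left) and cDKO (right). Filled points were called at an adjusted p under 0.05 over all loci and open points were not. Dnajb9, at 2.57 in cDKO, stands in both the HSP40 and the endoplasmic reticulum list.

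Genes of the immediate early and general stress response were summed as a list of 14. Their summed level was 153 to 163 RPM in cDKO against 100 to 108 RPM in GKAQ controls, and 100 to 113 RPM in G9a cKO against 100 to 137 RPM in GKAO controls. Of the 14, only 3 were detected, and a sum of RPM weighs such genes most. These were Egr1, Dusp1 and Ddit4, at log2 fold changes of 0.79, 0.66 and 0.59 in cDKO, and none of them was called. In cDKO 1 of the 14 was called, Hmox1, a heme-degrading stress gene, at 3 and 12 reads against 1 to 2. This call was made in 11 of 21 alternatives, and the log2 fold change went from 2.45 to 1.48 (adjusted p = 0.694) without cDKO replicate 1. None of the 14 was called in G9a cKO by limma, where 3 had an unadjusted p under 0.05 and 1 was called with voom precision weights. The part of this difference in the cDKO values of the members was not tested. Of the cell type markers, the 11 oocyte genes with a locus summed to 17703.6 to 18379.6 RPM in G9a cKO against 17055.5 to 17355.9 RPM in GKAO controls. In cDKO they summed to 15148.6 to 15460.7 RPM against 15412.0 to 15936.5 RPM in GKAQ controls. All 11 were detected. By limma 2 were called higher and 1 lower in G9a cKO, and 4 higher and 4 lower in cDKO. Of detected loci, 5.22% were called in G9a cKO and 15.8% in cDKO. The 13 granulosa genes summed to 119 to 146 RPM in cDKO against 134 to 160 RPM in GKAQ controls, and to 137 to 165 RPM in G9a cKO against 186 to 196 RPM in GKAO controls. Only 2 of the 13 granulosa genes were detected, and a sum of RPM weighs such genes most. By limma 0 of the 13 were called in G9a cKO (0 with voom, and 3 at an unadjusted p under 0.05). In cDKO 2 were called higher, and between the control groups 2 were called lower in GKAQ. None of the 13 was without a read in all libraries. The 3 globin genes with a locus had no read in any library.

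The detected member with the largest change was Hsf2. Among 6883 other named, detected loci, those whose log2 RPM followed Hsf2 most closely over the 11 libraries were Pramef17 (Pearson r = 0.962), Spnb2 (r = 0.944) and Dhrs2 (r = 0.942). The libraries share their groups, so these values describe a pattern that includes the difference between groups. Pramef17 had group means of 5.12, 19.4, 6.81 and 37.0 RPM in GKAO controls, G9a cKO, GKAQ controls and cDKO. In the same order Dhrs2 had 15.5, 21.1, 15.1 and 40.3 RPM and Spnb2 122, 146, 124 and 171 RPM.

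H3K9me2 was counted in windows of 10 kb, of which 18 overlap the 8 member loci. The median window of the genome had 4.02 RPM in controls, and 14 of the 18 member windows were below it. The control libraries held 13 to 103 reads per member window and the mutant libraries 0 to 18, so only large changes could be seen. Both mutants were compared with the same 2 controls. By limma none of the 18 windows was called in G9a cKO, where 1.85% of the 255057 windows tested were called, or in cDKO, where 0% were. At an unadjusted p under 0.05 there were 2 in G9a cKO and 1 in cDKO, and voom was not run on the windows. Because reads are scaled to each library, a change in the total amount of H3K9me2 cannot be seen.

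Hsf2 had the window with the largest difference. This was its last window, at 57510001 to 57520000 on chromosome 10. The locus ends at 57513133, so most of the window lies beyond the gene. The window held 4.54 and 4.23 RPM in controls, 8.62 and 16.2 RPM in G9a cKO and 9.87 and 7.44 RPM in cDKO. The mutant libraries were above both controls, with 14 to 18 reads each. The log2 fold change was 1.43 (standard error 0.34, limma adjusted p = 0.0599) in G9a cKO and 0.97 (standard error 0.34, adjusted p = 0.441) in cDKO. In G9a cKO it was called when all windows were tested (adjusted p = 0.0104) and without H3K9me2 G9a cKO replicate 1 (0.0446). The first Hsf2 window, which holds the promoter, held 2.84 and 3.14 RPM in controls, 4.31 and 0 RPM in G9a cKO and 3.48 and 5.31 RPM in cDKO.

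Over Hspa1b, the window at 34950001 to 34960000 held 2.98 and 2.20 RPM in controls, 2.15 and 0.902 RPM in G9a cKO and 1.16 and 1.06 RPM in cDKO. All mutant libraries were below both controls there, on 1 to 4 reads each, with log2 fold changes of -0.88 (standard error 0.69) and -1.20 (standard error 0.69). The next window of the locus, at 34960001 to 34970000, had -0.58 (standard error 0.53) in G9a cKO and -0.03 (standard error 0.53) in cDKO. The last, at 34970001 to 34980000, holds the Hspa1a promoter and had -0.20 (standard error 0.56) and 0.13 (standard error 0.56). The window with Hspa8 held 3.26 and 3.71 RPM in controls, 5.92 and 1.80 RPM in G9a cKO and 5.22 and 5.84 RPM in cDKO, a log2 fold change of 0.67 (standard error 0.54) in cDKO. The window with the Hsph1 promoter held 2.41 and 2.77 RPM in controls, 1.08 and 3.61 RPM in G9a cKO and 1.74 and 3.72 RPM in cDKO. None of these differences was called.

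**Figure D5:**
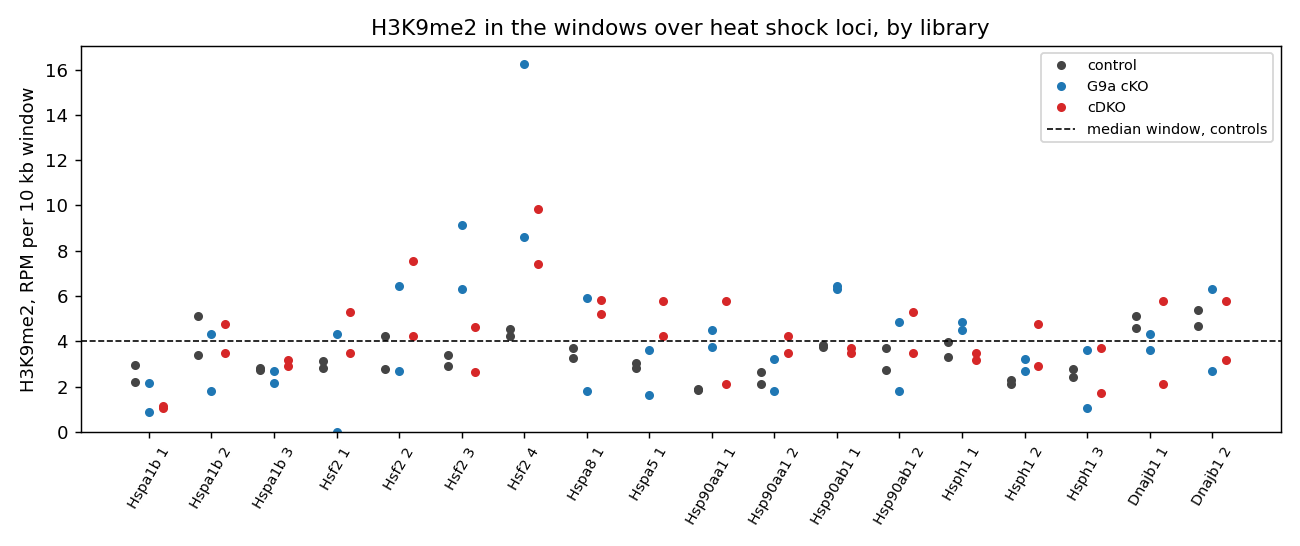
H3K9me2 in each of the 18 windows of 10 kb over the member loci, numbered along the chromosome, in RPM with 1 point per library. The dashed line is the median window of the genome in controls, 4.02 RPM, and the last Hsf2 window has the highest mutant values.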

How the data were processed

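RNA-seq and H3K9me2 ChIP-seq tables of mouse oocytes were used. The authors deposited both as log2 values with 1 column per library. The unit was inferred from the values, which are log2 of reads scaled to 1000000 with an empty feature set to 0.9 read. Whole reads were recovered within a tolerance of 0.1 read for 100% of values in each library, so log2 values of low loci depend on depth. GRCm38, Trim Galore, Bowtie2 and HISAT2 2.1.0 are named without roles, per the submitters' processing notes, and the counting method is not given in the sources used here. The step size gave library totals. H3K9me2 totals were 7048784 and 19128881 reads in controls and 1109191 to 1881848 in mutants. Of the H3K9me2 columns, 4 match no sample and were not used. Strand use in counting is not stated, and the Hspa1b locus overlaps 2 loci on the other strand that held 2 reads in all.

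A group-means model was fitted to the log2 values with limma 3.58.1 in R 4.3.3 (trend and robust moderation) over 11 RNA libraries, or over the 6 H3K9me2 libraries in windows with a read in at least 1 of them. Two-sided p-values were adjusted with the Benjamini-Hochberg method across every locus or window tested. Fits were tested on simulated data. Members and lists were chosen with earlier results of these data known. All members are named, with list genes called at a log2 fold change of at least 1 (up to 12 a comparison by size), the relatives Hspa1l, Hspa2, Hspa9, Hsp90b1 and Hsf5, named loci within 100 kb of Hspa1b, and the 3 named loci of at least 10 RPM with the pattern most like the most changed detected member. A locus stood for a gene where both lie on the same strand, taking the one with most reads. Alternatives changed the scaling, floor, filter, moderation, weights, controls and libraries, and 1 used the number in the sample titles (109 and 115 for GKAO, 51, 54, 55 and 57 for GKAQ) as a block, whose meaning the labels do not give. Figures used matplotlib 3.10.9. Bisulphite, input and IgG samples were not analysed here.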

Additional observations from a re-analysis of the deposited data

Results flagged for a closer look

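The effects of the mutants differed by the test of the difference itself for 3 of the named genes. For Hspa8 the cDKO effect was higher than the G9a cKO effect by 0.51 on the log2 scale (adjusted p = 0.000321, limma), with both cDKO libraries and all 3 G9a cKO libraries above their controls. For Hsph1 the difference was -0.46 (adjusted p = 0.00405, limma), with all 3 G9a cKO libraries above their controls and the cDKO libraries within the range of theirs. This difference was not called with voom precision weights or with log2(RPM + 1). For Hsp90b1 it was -0.38 (adjusted p = 0.00123, limma), with both cDKO libraries below their controls, and it was not called with voom precision weights. Genotype and title prefix differ together in this comparison and cannot be told apart.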

How the results depend on the processing

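From 2 members called in G9a cKO the count went to 0 under log2(RPM + 1) and without trend and robust moderation, and to 1 with loci of at least 1 RPM, with only the 2 groups compared and with the title-number block. From 3 in cDKO it went to 1 under log2(RPM + 1), without moderation and with the block, which leaves the cDKO effect to 1 pair of libraries. From 2, the differences between the effects became 4 with all 6 controls pooled, 1 with log2(RPM + 1) or precision weights, and 0 without moderation. Between control groups the count of 1 became 2 after centring or with only the 2 groups, and 0 without moderation. The other list genes went from 4 to 0 with log2(RPM + 1) and to 1 without moderation in G9a cKO, and from 12 to 4, 2, 7 and 3 in cDKO with log2(RPM + 1), without moderation, with precision weights and with the block. Leaving out single libraries gave 1 to 2, 1 to 4, 1 to 3 and 1 to 2 members in the order above, and 2 to 5 and 6 to 12 list genes. In G9a cKO the members fell to 1 without G9a cKO replicate 2 or 3, GKAO control replicate 1 or 2, or GKAQ control replicate 3. Of the 18 H3K9me2 windows, 1 was called in G9a cKO with all windows tested, and 0 to 1 without single libraries. The causes of these changes were not tested.

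Some log2 fold changes near 0 reversed, and none of these was called. Hsp90aa1 in G9a cKO was -0.005 after centring. Hsp90ab1 in cDKO was -0.081 with pooled controls, -0.092 after centring, -0.003 with precision weights, -0.273 with the block, -0.055 after upper-quartile centring and -0.198 to 0.202 without single libraries. Hsph1 in cDKO ranged from -0.094 to 0.062 without single libraries. The locus at the Hsf1 position was 0.005 with the block and -0.192 to 0.021 without single libraries in G9a cKO, and -0.012 after centring, -0.01 with the block and -0.062 to 0.226 without single libraries in cDKO. Reads of Hspa1a and Hspa1b could not be summed as planned, because 1 locus spans both. Depth limits Hspa1b and Hsf2, and the H3K9me2 windows, where decreases from so few reads are hard to detect.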
